A study of Mus musculus with 4 samples.

Results

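The genes described here encode potassium, sodium and calcium channels, the membrane proteins through which neurons set their resting potential, fire and admit calcium. They were taken from a table of RREB1 binding sites as every row whose gene symbol starts with Kcn or Cacn, or with Hcn or Scn followed by a digit. This gave 26 of the 1933 rows, of which 24 name a protein-coding gene and 2 name a noncoding RNA gene. The RefSeq annotation of GRCm38.p6 holds 138 protein-coding genes with these prefixes, and they form the family against which the rows were counted.

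RREB1 is a zinc finger transcription factor, and its binding was mapped by chromatin immunoprecipitation and sequencing (ChIP-seq) in cerebella of Tg(PCP2-Rreb1/3V5)20/J mice, 3 weeks of age. The transgene places a neuronal Rreb1 transcript with 3 V5 tags under the Purkinje cell promoter PCP2, all animals carry it, and each lysate was made from a whole cerebellum. The RREB1-3V5 ChIP group has 2 libraries made with a V5 antibody, 1 from a female and 1 from a male that were not pooled, and the Input group has 2 libraries without antibody from a female and a male. The deposited result is 1 list of merged peaks with a position, a kind of region, a nearest gene and a distance to its transcription start. It has no read count, score or value of a single library, so depth and the spread between animals are unknown, no comparison over samples could be tested, and the labelled tissue could not be checked against marker expression. The table names each gene once, whereas its peak numbers run to 3043 and 1110 of them (36.5%) have no row. Each listed position is 1 bp wide in 1911 rows and 2 bp wide in 22, so the widths of the peaks are unknown. Whether it is a summit or a centre of the peak is not stated. Words, introns and exons are therefore given for the listed position and not for the whole peak.

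Voltage-gated potassium (Kv), sodium and calcium channels open when the membrane is depolarised, and each has pore-forming subunits that conduct ions and auxiliary subunits that adjust gating or delivery to the membrane. Leak channels and inward rectifiers hold the resting potential, and calcium-activated potassium channels follow calcium entry. In the cerebellum, granule cells rely on leak and fast sodium and potassium currents, and Purkinje cells fire spontaneously with P/Q-type calcium channels and calcium-activated potassium channels in close cooperation.

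Of the 138 protein-coding channel genes, 24 had a row (17.4%, Wilson 95% interval 12.0 to 24.6%), compared with 7.54% of all 21774 protein-coding genes. The intervals treat genes as counts, cover counting error only, and are no test of the difference. Pore-forming subunits had 21 of 101 genes listed (20.8%, 14.0 to 29.7%). Auxiliary subunits and regulators had 3 of 37 (8.11%, 2.80 to 21.3%), a share close to that of all protein-coding genes, and the interval overlaps that of the pore-forming subunits. Among classes, the alpha1 pore subunits of calcium channels had the highest share, with 5 of 10 genes (50.0%, 23.7 to 76.3%). The 2-pore-domain leak channels followed with 4 of 14 (28.6%, 11.7 to 54.7%). Sodium channel beta subunits had 1 of 4 and alpha subunits 2 of 10. Kv pore subunits had 6 of 40 (15.0%), Kv auxiliary subunits 2 of 12, calcium- and sodium-activated potassium channels 2 of 12 and inward rectifiers 2 of 15. No row named any of the 4 HCN pacemaker channels, the 8 alpha2delta and beta subunits of calcium channels, the 8 gamma subunits and AMPA receptor regulatory proteins of the Cacng group, or the potassium channel regulator Kcnrg. The intervals of these empty classes reach 49.0%, 32.4%, 32.4% and 79.4%, so classes of this size say little by themselves. Classes also differed in median gene length, with 135 kb for the alpha1 subunits and 32.3 kb for Kv pore subunits. The alpha2delta and beta subunits, without a row, had 189 kb. The part of gene length in the class shares was not tested.

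**Figure D1:**
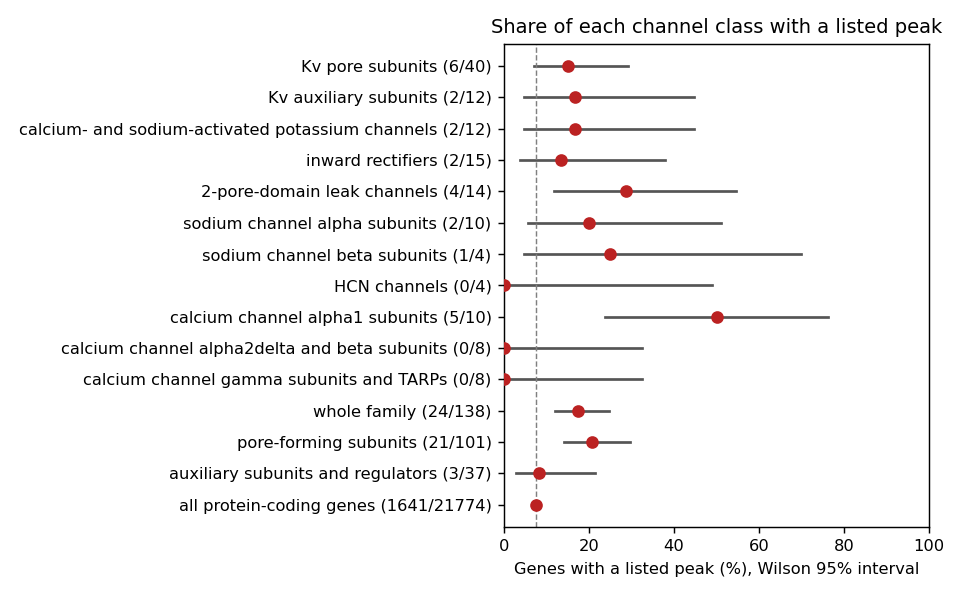
Share of protein-coding genes with a listed peak (horizontal axis, percent) for each channel class except the single gene Kcnrg, the whole family and all protein-coding genes. Points are shares, lines are Wilson 95% intervals, counts are in brackets, and the dashed line is the 7.54% of all protein-coding genes. Calcium channel alpha1 subunits had the highest share at 50.0%, and the intervals of most classes overlap.

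The table gives peaks to the gene with the nearest start, so long genes in wide loci can receive more of them. The listed channel genes had a median length of 129 kb (quartiles 33.8 and 331 kb) and the 114 without a row a median of 39.0 kb (13.8 and 111 kb). Over all protein-coding genes the medians were 38.1 kb with a row and 16.2 kb without. Of the 25 channel genes over 250 kb, 8 had a row (32.0%), against 25.9% of all genes of that length. Of the 44 channel genes under 20 kb, 5 had a row (11.4%), against 4.48% of all genes of that length. Starts of the family, together with the noncoding channel members with a row, were the nearest ones for 0.878% of the bases of the chromosomes. These genes had 26 of the 1932 rows there (1.35%), and the noncoding ones were added because they had a row. The table names each gene once, so this is a share of listed genes and not of peaks. The part of locus size in the share of listed channel genes was not tested.

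**Figure D2:**
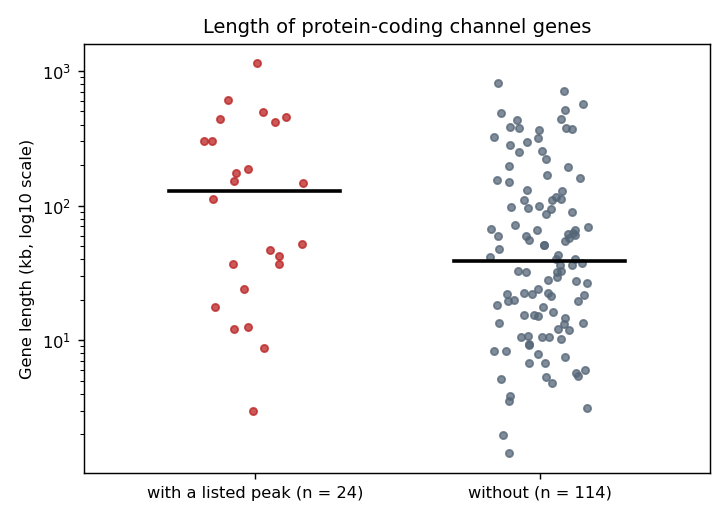
Gene length in kb (vertical axis, log10 scale) of the 24 protein-coding channel genes with a listed peak and the 114 without. Each point is a gene and the bars are medians, 129 and 39.0 kb. Lengths overlap widely, and both groups hold genes under 10 kb and over 500 kb.

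The letters around the listed positions are shown first for the channel peaks with an E-box of the form bound by NeuroD factors. E-boxes are short sites of bHLH proteins such as NEUROD1, which acts in granule cell differentiation. The word searched was CCATCTGC or CCATCTGT on either strand within 100 bp of the position. It was found at 10 of the 26 channel positions, of which 9 are shown. Each is printed 5′ to 3′ on the strand that carries the word, with 16 bases to each side and the E-box in capitals, from GRCm38.p6, whose chromosomes have the coordinates of mm10.
Cacna1a, chr8:84486091-84486130, minus strand: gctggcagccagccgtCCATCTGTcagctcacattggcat
Cacna1c, chr6:119079695-119079734, minus strand: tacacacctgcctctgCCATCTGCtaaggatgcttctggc
Kcna10, chr3:107175716-107175755, minus strand: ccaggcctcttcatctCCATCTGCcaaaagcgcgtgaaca
Kcnd3os, chr3:105476528-105476567, plus strand: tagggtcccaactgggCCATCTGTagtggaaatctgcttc
Kcnk1, chr8:126006599-126006638, plus strand: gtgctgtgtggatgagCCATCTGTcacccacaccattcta
Kcnk3, chr5:30586596-30586635, minus strand: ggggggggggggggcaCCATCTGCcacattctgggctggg
Kcnk9, chr15:72360682-72360721, plus strand: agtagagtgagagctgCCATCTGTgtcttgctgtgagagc
Kcnmb4os1, chr10:116362344-116362383, plus strand: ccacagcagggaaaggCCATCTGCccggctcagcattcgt
Kcnn3, chr3:89552066-89552105, minus strand: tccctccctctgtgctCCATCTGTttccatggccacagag

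The 10 E-boxes ended in C at 5 members and in T at 5, a nearly even division like that of all rows (235 and 258 matches). The base before the word was G in 5 members, T in 4 and A in 1, and no longer shared word was looked for. The closest E-box was that of Cacna1a, which encodes the P/Q-type calcium channel of Purkinje and granule cells, with its centre 0.5 bp from the listed position. Those of Kcnn3 and Kcnmb4os1 lay 8.5 and 15.5 bp away. In all, 4 were within 25 bp, and they were followed by Kcnd3os at 26.5 bp, Kcnk3 at 49.5 bp, Cacna1c at 63.5 bp, Kcnk1 at 76.5 bp, Kcna10 at 82.5 bp and Kcnk9 at 93.5 bp. The median was 38.0 bp over the 10 channel matches and 33.5 bp over the 493 matches of all rows.

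An E-box was present at 38.5% of channel positions (Wilson 95% interval 22.4 to 57.5%), against 22.3% of all 1932 rows on assembled chromosomes. With 50 bp to each side the shares were 19.2% and 15.3%, so most of the gap rested on matches farther out. Outside promoters, where all 10 lay, the shares were 10 of 23 for channels (43.5%, 25.6 to 63.2%) and 32.7% for all rows (412 of 1261), so the 2 shares were nearer to each other there. In windows of the same 201 bp, centred 1 kb before and after the positions, 2 and 0 of the 26 channel windows held the word, and 2.33% and 2.95% of all windows did. The study's own motif search on these peaks returned a motif close to that of NEUROD1, which it calls a known RREB1 cofactor. The contrast with the flanks is therefore not independent of that search. By class, the E-box was found at 3 of 4 leak channel positions, 2 of 5 calcium channel positions, 2 of 6 Kv pore positions, 1 of 2 calcium-activated channels and both noncoding rows. None of the 3 sodium channel rows, the 2 inward rectifier rows or the 2 Kv auxiliary rows held it. It was present at 4 of the 11 positions inside the gene they name and at 6 of the 15 others.

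**Figure D3:**
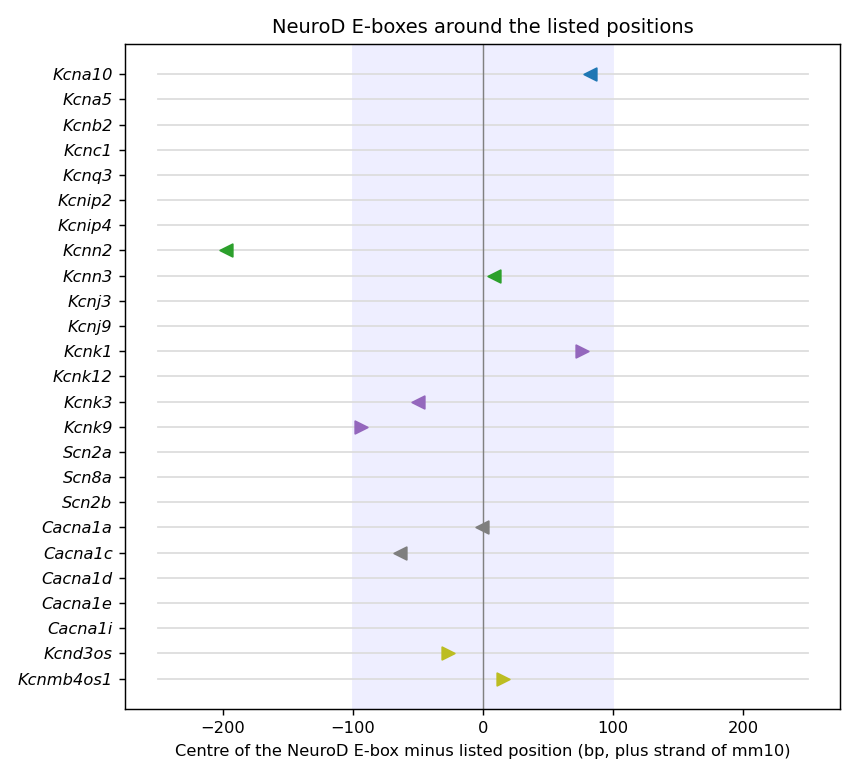
Centre of each NeuroD E-box relative to the listed position (horizontal axis, bp along the plus strand) for 25 of the 26 channel rows, with arrowheads pointing along the strand of the word and the window of 100 bp to each side shaded. The E-boxes of 9 of the rows drawn fell inside that window, and that of Kcnn2 lay outside it at -197.5 bp.

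Other words were searched in the same windows. The core CATCTG, which every NeuroD E-box contains, was present at 12 of 26 (46.2%), against 35.1% of all rows. Kcnk12 and Scn2b were added to the 10 with an E-box. Outside promoters the CATCTG shares were close, at 12 of 23 for channels (52.2%) and 49.1% for all rows. The E-box CAGCTG, which reads alike on both strands, was present at 4 (15.4%), among them those of Kcnk9, Kcnn3 and Kcnq3, against 11.5%. Outside promoters the CAGCTG shares were 17.4% and 13.2%. The GC box GGGCGG, a site of Sp factors, was present at 1 channel position, that of Cacna1c (3.85%, 0.682 to 18.9%), against 22.9% of all rows and 7.85% of rows outside promoters. ACCACCC, part of the C-rich element from which RREB1 was first described in human cells, was found at none of the 26 (upper limit 12.9%) and at 1.76% of all rows. TTCAGCACC, the left part of the element of the neuronal gene repressor REST, was found at none (upper limit 12.9%) and at 0.311% of all rows. For words this rare over all rows, a count of none in 26 windows says little. For comparison, in 32851 RefSeq promoters of 300 bp the NeuroD E-box was present in 3.07% and the GC box in 35.7%, and in the 137 promoters of the 101 channel genes that matched that table they were present in 3.65% and 46.0%. These windows are longer than those around the peaks.

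Most channel peaks lay far from a start. Promoters, which HOMER takes as the 1 kb before a start and 100 bp after it, held 3 of the 26 positions (11.5%, Wilson 95% interval 4.00 to 29.0%), against 34.7% of all rows. Counted by gene, 3 of the 138 channel genes had a promoter peak, against 2.93% of all protein-coding genes. Within 5 kb of a start were 5 channel positions (19.2%, 8.51 to 37.9%) and 44.0% of all rows, and by gene 5 of 138 channels against 3.66% of all protein-coding genes. At starts, then, the counts of listed channel genes were near those of other genes. The table names each gene once, so a peak nearer to a start could be among the numbers without a row. Such a missing number lay between the position and a listed neighbour for 20 of the 26 channel rows (76.9%), against 62.9% of all rows. Introns held 15 (57.7%, 39.0 to 74.5%, against 32.7% of all rows) and intergenic sequence 7 (26.9%, against 28.4%), and the remaining position was in an exon. The median distance to the start was 33.4 kb (95% interval of the median 11.4 to 70.7 kb) with a range from 34 bp to 272 kb, compared with a median of 10.4 kb over all rows. Peaks lay upstream of the start in 14 members and downstream in the other 12.

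**Figure D4:**
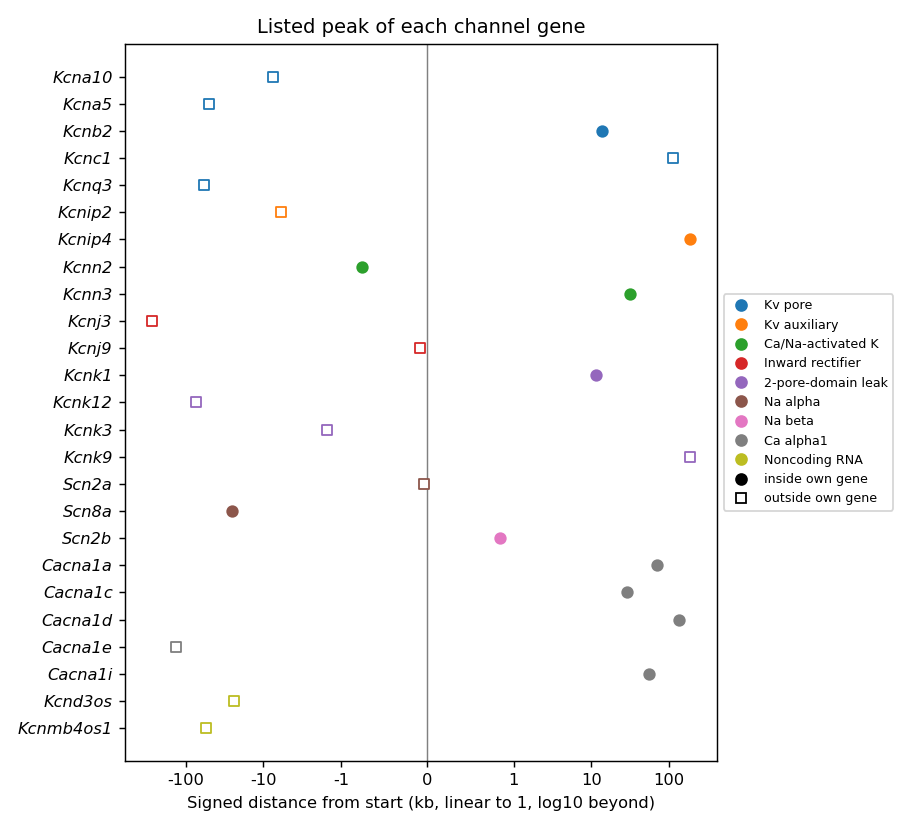
Signed distance in kb from the transcription start to the listed peak of 25 of the 26 channel rows, negative upstream, on an axis that is linear within 1 kb and logarithmic beyond. Filled circles lie inside a curated transcript of the gene the row names, open squares outside it, and colours are channel classes. The peaks of Scn2a, Kcnj9, Kcnn2 and Scn2b were within 1 kb, and 11 of 26 were inside their own gene.

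Promoter peaks belonged to a sodium channel and an inward rectifier, shown here because they are the positions at a start, and to a calcium-activated channel described further on. Scn2a encodes a sodium channel alpha subunit of axon initial segments, and its peak at position 65620735 on chromosome 2 was 34 bp upstream of a start. Kcnj9 encodes a subunit of the G protein-gated inward rectifiers, which transmitters open through G protein-coupled receptors, and its peak at 172329404 on chromosome 1 was 82 bp upstream. Both windows are given in the direction of transcription, with the bases from the start site onward in capitals.
Scn2a promoter, chr2:65620690-65620780, plus strand: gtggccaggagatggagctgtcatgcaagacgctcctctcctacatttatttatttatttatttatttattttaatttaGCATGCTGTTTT
Kcnj9 promoter, chr1:172329314-172329494, minus strand: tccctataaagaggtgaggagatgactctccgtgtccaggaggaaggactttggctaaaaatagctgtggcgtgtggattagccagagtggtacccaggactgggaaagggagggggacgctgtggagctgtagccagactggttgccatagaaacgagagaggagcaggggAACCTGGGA

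The Scn2a window held a run of 7 ATTT units just before the start, and over 201 bp it had 38.8% G and C and 27.9% repeat-masked bases. The Kcnj9 window was richer in G and C, at 55.2%. Neither held any of the words searched within 100 bp of its position, and with 250 bp to each side no NeuroD E-box was found either. The start of Kcnj10, an inward rectifier of astrocytes and Bergmann glia, lies 11.8 kb from the Kcnj9 position, and no row named Kcnj10. The start of Scn3a, a neighbouring sodium channel gene, was 53.2 kb from the Scn2a position and also had no row. After the Scn2a peak the next listed position was 1945 kb away, with 4 peak numbers missing between them, so further peaks in that stretch are possible.

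The other sodium channel rows were intronic. Scn2b encodes a beta subunit linked to the alpha subunits by a disulfide bond, and its peak (chromosome 9, 45118721) was 845 bp downstream of the start in intron 1 of 3, a stretch that the noncoding gene Gm10684 also spans on the opposite strand. The start of Scn4b, another beta subunit, was 19.9 kb away and had no row. Scn8a encodes the alpha subunit that carries resurgent current in Purkinje cells. Its peak (chromosome 15, 100910593) was in intron 1 of 26 of the longest transcript and 25.7 kb upstream of the nearest start, which belongs to a shorter one. None of the 3 positions held a NeuroD E-box within 250 bp.

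Calcium channel alpha1 genes were listed for the P/Q, L, R and T types. The peak of Cacna1a (chromosome 8, 84486111) was in intron 2 of 45, 70.7 kb downstream of the start. Those of the L-type genes Cacna1c (chromosome 6, 119079778) and Cacna1d (chromosome 14, 30218251) were in intron 1 of 46 and intron 3 of 46, at 28.7 and 135 kb. These introns are long, with 52.1 kb in Cacna1a, 139 kb in Cacna1c and 150 kb in Cacna1d. The peak of Cacna1i, a low-threshold T-type channel, was in intron 5 of 36 at 55.9 kb (chromosome 15, 80343159). Cacna1e, the R-type gene, had its peak 136 kb upstream of the nearest curated start (chromosome 1, 154861541). That position is intergenic in the table but lies within the RefSeq gene record, which predicted transcripts extend. The 5 alpha1 genes without a row were Cacna1b, Cacna1f, Cacna1g, Cacna1h and Cacna1s, which encode the N-type channel, the L-type channels of retina and skeletal muscle and the remaining T-type channels.

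The leak channels set the resting potential of granule cells, in which TASK channels are prominent. Both Kcnk3 and Kcnk9, which encode TASK channels, were listed. Kcnk3 had its peak 1505 bp upstream of the start (chromosome 5, 30586665), within intron 1 of the noncoding gene Gm9899 on the opposite strand. A second listed peak, given to Gm9899, lay 4.62 kb further along in the only intron of Kcnk3, 3117 bp downstream of its start, and it held no NeuroD E-box. Kcnk9 had its peak 187 kb downstream of the start and past the 3′ end of the gene (chromosome 15, 72360795). Kcnk1, of the TWIK group, had its peak in intron 1 of 2 at 11.4 kb (chromosome 8, 126006542). Kcnk12, of the THIK group, had its peak 74.6 kb upstream (chromosome 17, 87872591).

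Of the Kv pore subunits, Kcnb2 alone held its peak inside its own gene. Kcnc1 encodes a high-threshold channel that lets neurons fire fast. The peak named for Kcnc1 (chromosome 7, 46510215) was 114 kb downstream of its start and inside the last intron of Sergef, which has a row of its own 25.3 kb away. Kcnq3, a subunit of the M-current, had its peak 57.5 kb upstream (chromosome 15, 66344142). The shaker-related genes Kcna5 and Kcna10 had peaks 50.5 and 7.49 kb upstream (chromosome 6, 126586072, and chromosome 3, 107175653). Both belong to clusters of Kv1 genes. The Kcna5 position was 59.7 kb from the start of Kcna1 and 155 kb from that of Kcna6, and the Kcna10 position was 74.1 kb from Kcna2 and 139 kb from Kcna3, none of which had a row. Of these neighbours Kcna1, little farther from its position than Kcna5, is abundant at the axon terminals of cerebellar basket cells.

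Of the auxiliary Kv subunits, Kcnip4 and Kcnip2 were listed, which encode calcium-binding proteins of the Kv4 channels. The peak of Kcnip4 (chromosome 5, 49095672) was in the first intron, 1015 kb long, and 190.0 kb from the start. That of Kcnip2 (chromosome 19, 45822013) was 5950 bp upstream of the start and inside intron 24 of 25 of the neighbouring gene Armh3.

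The calcium-activated channels with a row were the SK genes Kcnn2 and Kcnn3, whose channels shape the afterhyperpolarisation. Kcnn2 is the main SK gene of Purkinje cells. Its peak (chromosome 18, 45559398) was 756 bp upstream of a start used by short transcripts, had 64.2% G and C, and lay in coding exon 4 of 11 of the longest curated transcript. The peak of Kcnn3 (chromosome 3, 89552077) was in intron 1 of 7, 31.9 kb downstream of the start.

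Both noncoding rows lay inside protein-coding genes. Kcnd3os is an antisense transcript at Kcnd3, the gene of an A-type Kv4 channel that had no row. The position (chromosome 3, 105476574) was 23.6 kb upstream of the Kcnd3os start and in intron 2 of 6 of Kcnd3, 24.7 kb downstream of the Kcnd3 start. Kcnmb4os1 is named after Kcnmb4, the neuronal beta subunit of large-conductance calcium-activated channels. Its row (chromosome 10, 116362348) lay in coding exon 22 of 32 of the phosphatase gene Ptprb, 55.8 kb upstream of Kcnmb4os1 and 111 kb from the start of Kcnmb4.

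Not every channel position lay inside the gene its row names. Of the 26 channel positions, 11 (42.3%, 25.5 to 61.1%) lay inside a curated transcript of the gene they name, and 5 (19.2%, 8.51 to 37.9%) lay inside another protein-coding gene instead, against 33.3% and 11.5% of all rows. Positions outside the named gene also include those just upstream of its start, as at Scn2a and Kcnj9. Counted by position, 18 of the 138 channel genes held a listed peak within their gene record, compared with 4.45% of all protein-coding genes. A longer gene can hold more positions, and the median length was 42.6 kb in the family and 17.2 kb over all protein-coding genes. The part of gene length in this count was not tested. Of these 18 genes, 5 had no row of their own. They included Kcnd3, the alpha2delta gene Cacna2d2, the Kv beta gene Kcnab1 and the leak channel gene Kcnk10, each with a peak in an intron given to another gene. Cacna2d2 and Kcnab1 are both expressed in Purkinje cells. A second peak also lay in Cacna1a, in intron 42 of 45, and was given to the immediate early gene Ier2. It held 2 NeuroD E-boxes. Peaks given to noncoding genes had as nearest protein-coding starts those of Kcnma1 (911 kb), Kcnh7 (269 kb) and Kcnj15 (84.0 kb). These genes were named after their values were seen.

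The base composition of the channel positions fell into separate ranges. At 24 of them G and C made up between 38.8 and 64.2% of 201 bp, with a median of 56.5%. At Kcnj3 and Kcnb2 they made up 11.9 and 9.95%. Kcnj3 encodes the partner of Kcnj9 in G protein-gated channels, and its peak was the farthest of all members, 272 kb upstream of the start (chromosome 2, 55164284). Kcnb2 encodes a delayed rectifier, with its peak in intron 1 of 2 at 13.9 kb (chromosome 1, 15300791). The central 101 bases of both are shown with each G or C in capitals, on the plus strand.
Kcnj3, chr2:55164234-55164334: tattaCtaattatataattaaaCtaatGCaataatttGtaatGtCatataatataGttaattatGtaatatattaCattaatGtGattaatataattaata
Kcnb2, chr1:15300741-15300841: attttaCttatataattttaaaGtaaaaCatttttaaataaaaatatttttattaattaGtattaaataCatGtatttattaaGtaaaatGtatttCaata

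In these stretches 12 and 9 of 101 bases were G or C, and 62.7% of the 201 bp around either position was repeat-masked. The same kind of window was found at 91 of the 1932 rows (4.71%), with a median of 9.45% G and C and 85.6% repeat-masked bases. No row had between 20 and 30% G and C, none of the 91 was at a promoter, and none held a NeuroD E-box. Without them 22 protein-coding channel genes had a row. The same filter took out 2 of the 24 protein-coding channel rows (8.33%) and 70 of the 1639 rows of all protein-coding genes (4.27%). The part of base composition and repeats in the calls at Kcnj3 and Kcnb2 was not tested.

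**Figure D5:**
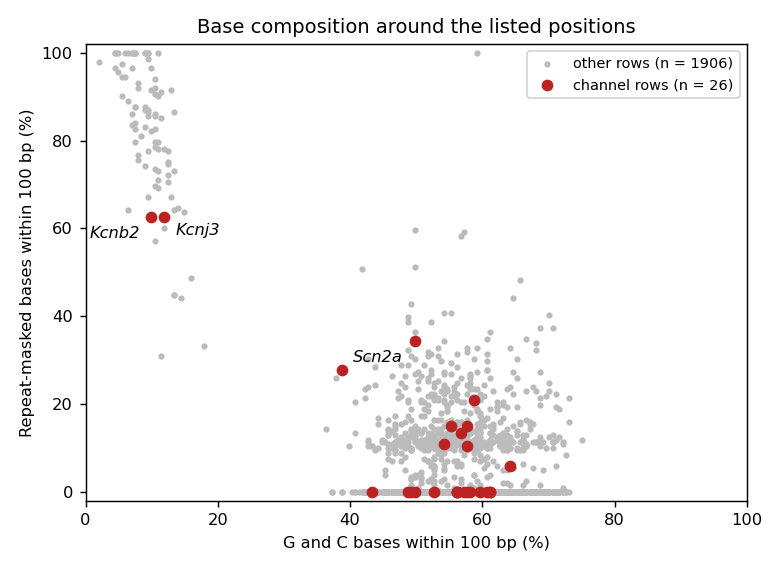
G and C bases (horizontal axis) and repeat-masked bases (vertical axis), each in percent of the bases within 100 bp of the listed position, for the 26 channel rows (red) and the other 1906 rows (grey). Kcnj3 and Kcnb2 sit in the separate AT-rich cloud at 11.9 and 9.95% G and C, while the other 24 channel rows lie between 38.8 and 64.2%.

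Channels were also grouped by the cells in which they are best known, with lists that share genes and were written with earlier results of these data known, so their shares are descriptions only. They stand beside 17.4% of the whole family and 7.54% of all protein-coding genes. Of 15 granule cell channels 9 had a row (60.0%, Wilson 95% interval 35.7 to 80.2%), and they were Kcnk1, Kcnk3, Kcnk9, Kcnj9, Kcnc1, Kcnip4, Scn2a, Scn8a and Cacna1a. Of 15 Purkinje cell channels 5 had a row (33.3%, 15.2 to 58.3%), among them Cacna1a, Kcnc1, Kcnn2 and Scn8a, of which Cacna1a, Kcnc1 and Scn8a are in both lists. Without a row were the granule cell channels Kcnd2, Kcnd3, Kcnj6, Kcnj12, Kcnh7 and Cacng2. The same held for Purkinje cell channels that included Cacna1g, Cacna2d2, Kcnma1, Kcnmb4, Kcna1, Kcna2, Kcnab1 and Scn4b. By position inside the gene, 6 of 15 were counted in each list. The median gene length was 147 kb in the granule cell list and 66.0 kb in the Purkinje cell list. No row named any of 10 channels of skeletal muscle and heart, 7 of epithelia or 2 of glia, with medians of 26.9, 15.4 and 46.4 kb and upper limits of 27.8, 35.4 and 65.8%. The muscle and heart list is not complete, since Cacna1c, Kcna5, Kcnip2 and Kcnj3, which are also known from the heart, are not in it and had a row. The lysate holds all cerebellar cells, but the antibody was against V5 and the study describes the tagged protein by immunofluorescence as restricted to Purkinje cells. The table itself has no value by cell type.

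Proteins that work with these channels were counted in the same way. Of 20 partners, 6 had a row (30.0%, 14.5 to 51.9%), with a median gene length of 264 kb, beside 7.54% of all protein-coding genes and 25.9% of those over 250 kb. Fgf12 and Fgf14 encode intracellular FGF homologous factors that bind sodium channels, and the peak of Fgf12 was 86 bp upstream of a start while that of Fgf14 was 141 kb downstream of one. Dpp6 and Dpp10 encode Kv4 auxiliary proteins and had peaks at 119 and 103 kb. Cntnap2, which gathers Kv1 channels beside nodes of Ranvier, had its peak 182 bp downstream of its start. Ank3, the scaffold of the axon initial segment, had its peak 32.6 kb upstream of the nearest start, in an intron and in the AT-rich set. Of 53 chloride, TRP, ryanodine receptor, IP3 receptor and other channel genes, 3 had a row (5.66%, 1.94 to 15.4%, close to the 7.54% of all protein-coding genes), which were Ano3, Tpcn1 and Trpm3.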

How the data were processed

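Cerebella of 2 transgenic mice gave 2 RREB1-3V5 ChIP and 2 Input libraries, grouped by their titles. Adapters were cut with fastp and alignment to mm10 was done by the authors with Bowtie2. Sambamba left uniquely placed, deduplicated reads, on which MACS3 called peaks at a q of 0.05. Overlapping peaks of the samples were joined with bedtools, and HOMER annotated the deposited list. For tool versions, these were not given in the sources used here. Columns taken up hold positions, peak numbers and distances in bp. Merged peaks were not traced back to single libraries.

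Members were found by symbol, and all 26 symbols matched their Entrez numbers. RefSeq starts on GRCm38.p6 gave the table's distance for all 26 (97.0% of 1932 rows). Only curated transcripts were used for starts and introns, while gene lengths came from whole gene records. Words were searched in 201 bp around each position, and repeat-masked bases are the lower-case letters of the RefSeq genome. Shares have Wilson 95% intervals, and no test was made, since the table holds no replicate. The word search was tested on simulated strings of A and T with planted words. Such strings cannot hold the words otherwise, so the test covers recovery only and not matches by chance. Python 3.11.15, pandas 2.3.3, scipy 1.17.1 and pysam 0.24.0 were used. Members, classes and lists were chosen with earlier results of these data known. A few genes are not reported here by name, though they stay in all counts. Every other member is named, with values for peaks at a promoter, within 5 kb of a start, with an E-box, or nearest to or farthest from the start in a class. Alternatives varied the distance limit, the gene assignment, the window and the word.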

Additional observations from a re-analysis of the deposited data

How the results depend on the processing

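The count of 24 protein-coding channel genes with a row stayed within 1.5 times when peaks were limited to 100 kb (18), given to the nearest protein-coding RefSeq start (30), limited to pore-forming subunits (21) or named by Entrez number (24). The pore-forming count is a subset, 21 of 101 genes, and the Entrez count was fixed, since all 26 symbols matched. The share of all protein-coding genes is not given for these settings, so the counts do not bear on the difference between channels and other genes. The channel count fell to 5 with peaks within 5 kb of a start and to 3 with promoter peaks, since these limits leave fewer peaks. The same limits left 3.66% and 2.93% of all protein-coding genes. Alternatives chosen after the data were seen gave 18 by position inside the gene and 22 without AT-rich positions. The share of channel peaks with a NeuroD E-box was 38.5% with 100 bp to each side, 19.2% with 50 bp and 42.3% with 250 bp, and the shares of all rows at 50 and 250 bp were 15.3 and 26.5%. The promoter share was 11.5% with RefSeq starts, and the median distance was the same with every start tried. These 2 results could hardly differ, since RefSeq starts gave the table's distance for all 26 rows. Counted on either side of a start, 15.4% of channel peaks were within 1 kb and 19.2% within 5 kb. The shares of all rows were 37.8 and 44.0%. No paired analysis was possible because the table holds no value of a single library, and no replicate could be left out.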
